A study of Sus scrofa with 36 samples.

Results

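The measurements described here are those of 8 genes of hepatic fatty acid oxidation and its control in the pig, CPT1A, CPT2, ACADM, HADHA, HADHB, ACAA1, EHHADH and PPARA, out of 11090 named gene symbols with a measured probe. They were chosen by name: a 60-base probe was taken where its symbol, RefSeq accession or description named a member and the scanner software marked its signal as well above background on 6 or more of 36 arrays. The 8 genes had 36 probes on the array, all 36 passed that limit, and 32 of them were well above background on all 36 arrays. The exceptions were CPT1A probes A_72_P443908 and A_72_P479795, each on 35 arrays, CPT1A probe A_72_P409728 on 11 arrays, and HADHB probe O5529 on 25 arrays.

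Liver RNA was profiled in 36 castrated male growing pigs of 3 breeds, Large White (LW), Creole (CR) and their cross (F1), with 12 animals per breed. In each breed 6 animals were slaughtered at 24 °C (thermoneutral, TN) and 6 after heat stress (HS), which made 6 groups of 6. The sample labels of the HS animals read 30 °C, whereas the growth protocol gives 32 °C for 5 days, and the study's methods give 4 or 5 days. The pigs were littermates in blocks, were penned by breed and had free access to the same feed. Each pen was slaughtered at a single temperature. The paper reports a lower feed intake in HS than in TN conditions. Each breed came from 3 blocks of 4 littermates, so litter and pen lie within breed. The labels identify neither litter nor pen, so the tests treat the animals as independent. Pens also lie within temperature. The SEs and p-values between breeds, between HS and TN and within single breeds may therefore be too small. Differences between breeds cannot be told apart from differences between these few litters and pens. TN slaughter came first. The effects of temperature, of pen, of lower feed intake, of slaughter day and of slightly greater age cannot be told apart. The p-values measure the spread between these samples only. The question was which transcripts of fatty acid oxidation differed with heat and which differed between breeds.

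Long-chain fatty acids enter liver mitochondria as carnitine esters, which CPT1A forms at the outer membrane and CPT2 converts back to acyl-CoA at the inner membrane. Inside, ACADM opens each cycle of β-oxidation for medium-chain acyl-CoA, and the trifunctional protein made of HADHA and HADHB carries out the later steps on long chains. Peroxisomes run a parallel chain for very long and branched substrates. EHHADH is a bifunctional enzyme and ACAA1 a thiolase of peroxisomal β-oxidation. PPARA is the nuclear receptor that is switched on by fatty acids in fasting and drives most of these genes, and the acetyl-CoA produced feeds ketone body synthesis.

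The tissue carried its defining markers. The mean log2 signal of 7 measured hepatocyte markers lay between 16.17 and 16.57 in all 36 animals, and ALB lay between 18.65 and 18.85. The median of the mean log2 signals over all 44796 kept probes was 7.43. On the first principal component, which held 18.6% of the variance, 5 arrays lay away from their breed: LW TN replicates 1 and 6, F1 TN replicate 3 and F1 HS replicates 1 and 2. Results are given with and without these 5 arrays. They were picked on expression, so counts without them are descriptions. Macrophage, neutrophil, endothelial and lymphocyte markers differed between breeds, and their values stand beside the breed results. In whole liver, fewer cells of a type and less RNA per cell cannot be told apart.

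Because 1 gene could be read by several probes, stretches of several probes are shown first. The stretches below are bases 1 to 30 of 60 unless another range is given, 5′ to 3′ as the array files list them, and capitals mark bases that the paired probe also holds. The 3 ACAA1 probes read only 2 different sequences, since A_72_P209815 and A_72_P620829 are identical over all 60 bases.
ACAA1 A_72_P209815: TAGTAAATGTGTTGTCTTAGTGGATGGGCT
ACAA1 A_72_P620829: TAGTAAATGTGTTGTCTTAGTGGATGGGCT
ACAA1 O14450: tccatgtgtattgggaccggcatgggtgct
The array files name the identical pair after a peroxisomal thiolase-like locus, LOC100517370, and attach a transcript accession that the Sscrofa11.1 gene table assigns to ACAA1. Whether this pair reads ACAA1 alone or also a near-identical copy is uncertain. For HADHA, A_72_P092111 (bases 19 to 48) and A_72_P736892 (bases 16 to 45) share 39 bases, and the representative probe A_72_P223852 reads another stretch.
HADHA A_72_P092111: aacAAAACAGTATTAGGGGCCCCTGAAGTC
HADHA A_72_P736892: aagAAAACAGTATTAGGGGCCCCTGAAGTC
HADHA A_72_P223852: agaatcggaatgtgaattctgacacggaga
The remaining stretches are those of probes used in the breed comparisons and of the CPT1A probe with the largest within-breed difference.
EHHADH O9867: agagtggccatccttggtcaggaccaaaac
EHHADH A_72_P213592: agctcatgtgatgaagttgttagaggttat
ACADM A_72_P146381: gccagtgattttgtagacttaagggtttta
CPT2 A_72_P026376: cctttcgtttttctcaggagtaaactgcta
CPT1A A_72_P403023: cattgcatgtaaatacgatatgctctttgg

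On Sscrofa11.1 the genes lie at chr2:4250642-4293914 (CPT1A, 6 probes), chr6:159038129-159061327 (CPT2, 2 probes), chr6:137541481-137575544 (ACADM, 8 probes), chr3:112753343-112797627 (HADHA, 5 probes), chr3:112712894-112753121 (HADHB, 6 probes), chr13:22964844-23020138 (ACAA1, 3 probes), chr13:123104085-123162119 (EHHADH, 2 probes) and chr5:3302755-3321091 (PPARA, 4 probes). HADHA and HADHB are direct neighbours. PPARA also had a pair of probes of identical sequence, and 2 pairs of HADHB probes shared 57 bases each, so the 36 probes held 34 distinct sequences. Which exon or untranslated region each probe reads was not analysed here.

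Probes of the same gene were compared by the correlation of their deviations from the 6 group means over 36 arrays, as a description. For ACADM, the 27 probe pairs without shared sequence had a median r of 0.94 (0.85 to 0.98). The single pairs of CPT2 and EHHADH had r of 0.88 and 0.87, and the 15 pairs of CPT1A a median r of 0.78 (0.57 to 0.95). Different stretches of ACADM, CPT2 and EHHADH were therefore read alike, and those of CPT1A less closely. For HADHB, 13 pairs had a median r of 0.75 (0.06 to 0.92), with the lowest values in pairs of O5529. For PPARA, 5 pairs had a median r of 0.64 (0.40 to 0.77). The PPARA pair of identical sequence had r of 0.71, within that range, so the lower PPARA values need not mean that its stretches were read differently. The identical ACAA1 pair had r of 0.90, and the SD of its difference over 36 arrays was 0.0726 on the log2 scale. Its members had r of 0.60 and 0.64 with O14450. HADHA split in its probes: A_72_P223852 and O9964 had r of 0.91, and the overlapping pair r of 0.92, but r between the overlapping pair and the other 3 probes lay between -0.27 and 0.04. The HADHA probes therefore read at least 2 signals that did not vary together, and they are given separately.

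**Figure D1:**
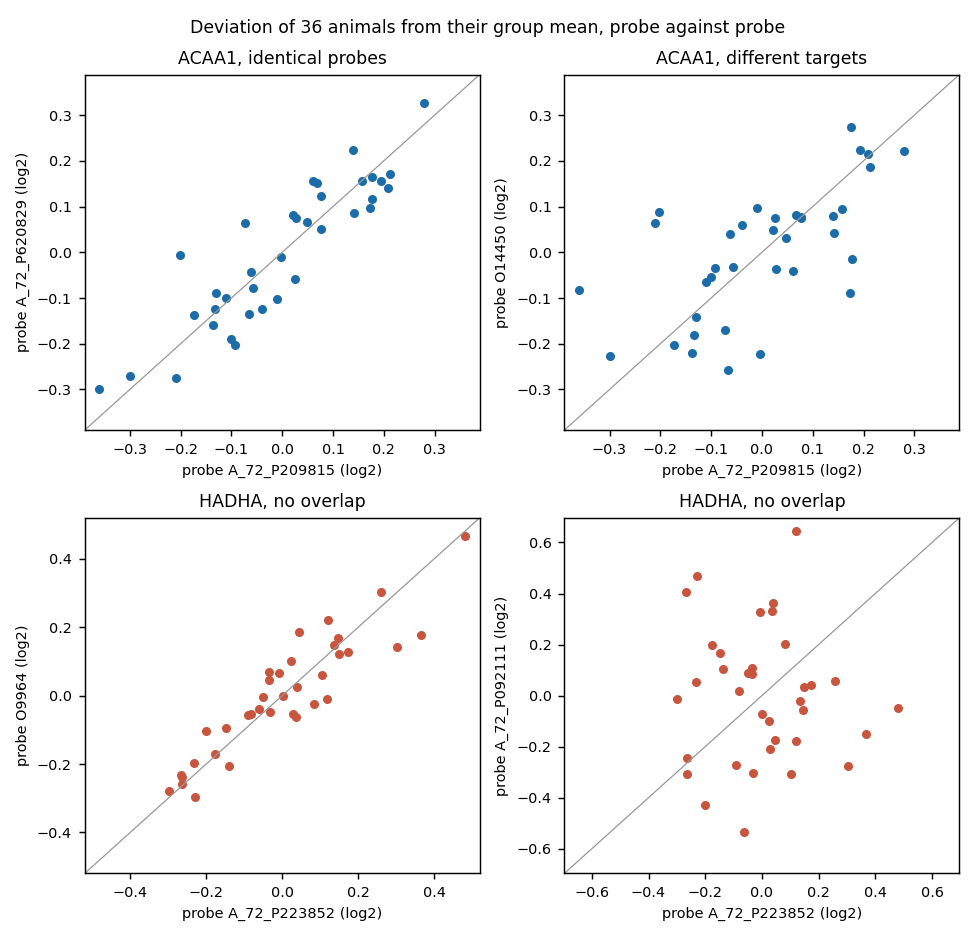
Each point is 1 of 36 animals, plotted as its deviation from its group mean in log2 signal for 2 probes of the same gene, with the line of equality. The identical ACAA1 probes (r = 0.90) and HADHA probes A_72_P223852 and O9964 (r = 0.91) lie along the line, the 2 ACAA1 sequences less so (r between 0.60 and 0.64), and HADHA A_72_P092111 shows no relation to A_72_P223852 (r = -0.07).

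**Figure D2:**
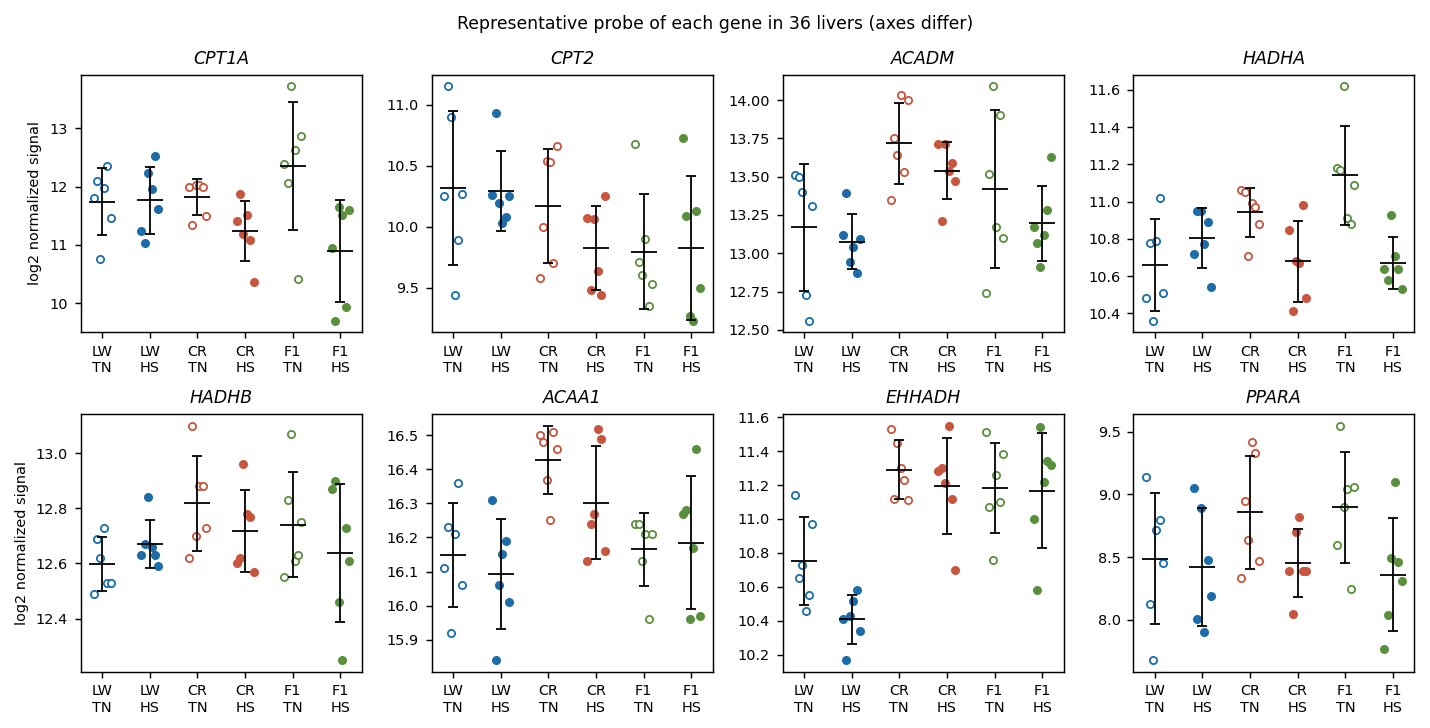
Log2 quantile-normalized signal (vertical axes, which differ) of the representative probe of each gene, the probe with the highest mean signal, in 6 groups of 6 pigs. Open circles are TN and filled circles HS animals, and bars are the mean ± SD. EHHADH lies between 10.17 and 10.58 in LW HS, between 10.46 and 11.14 in LW TN and between 10.58 and 11.55 in CR and F1, so that the breeds overlap, and CPT1A in F1 spans 9.70 to 13.72.

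In the contrast over all breeds, heat stress was associated with small differences in the same direction in nearly all probes. Few of them passed the test. Between HS and TN over the 3 breeds, 2 of 36 member probes passed the test (limma, Benjamini-Hochberg adjusted p under 0.05 over all kept probes), and both were lower in HS. The same test called 0.859% of the 44796 kept probes, and 0.424% as lower in HS. The 2 called probes are the identical ACAA1 pair, so the count is 1 distinct sequence of 34. The log2 difference was below 0 for 34 of 36 member probes (94.4%), against 49.4% of all kept probes, with a median of -0.17 against 0.00114. Probes of 1 gene and genes of 1 animal vary together, so this share is a description.

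In the peroxisomal thiolase ACAA1, A_72_P209815 had a lowest, median and highest log2 signal of 12.85, 13.22 and 13.36 in LW TN and of 12.56, 12.92 and 13.21 in LW HS. The values were 13.26, 13.42 and 13.54 in CR TN and 12.99, 13.03 and 13.33 in CR HS. They were 13.08, 13.26 and 13.39 in F1 TN and 12.89, 13.09 and 13.27 in F1 HS. The median was lower in HS in each breed, and the HS and TN ranges overlapped in each breed. A_72_P209815 fell by 0.22 on the log2 scale (SE 0.0548, limma adjusted p = 0.0414), which means that its signal fell by 14.2%, and A_72_P620829 fell by 0.23 (SE 0.0552, limma adjusted p = 0.039). Of 18 HS animals, 15 and 17 respectively lay below the TN mean of their breed. The difference lay below 0 on each of 5 slides, between -0.35 and -0.16 for A_72_P209815. The other ACAA1 probe, O14450, showed -0.06 (SE 0.0512, limma adjusted p = 0.728), with 9 of 18 HS animals below the TN mean of their breed. The ACAA1 difference was therefore seen in 1 of 2 sequences. Without the 5 arrays that lay away from their breed, 0 of 36 probes passed and the pair showed -0.20 and -0.21 (limma adjusted p = 0.106 and 0.0962), beside 0.708% of all kept probes. Leaving out any 1 of the 5 slides also gave 0 of 36. Leaving out 1 array gave 0 of 36 for 15 of the arrays and 1 of 36 for 6 of them.

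In the carnitine shuttle, CPT1A showed the largest differences among the members without passing the test. Its representative probe A_72_P403023 had a lowest, median and highest log2 signal of 10.42, 12.01 and 13.72 in 18 TN animals and of 9.70, 11.46 and 12.52 in 18 HS animals. The difference was -0.67 (SE 0.238, limma adjusted p = 0.168), and 14 of 18 HS animals lay below the TN mean of their breed. The 6 CPT1A probes ranged from -0.69 to -0.15 and 0 of 6 passed, with 4 of 6 under 0.05 without adjustment. Within slides the representative difference ran from -1.20 to -0.40 and was below 0 on 5 of 5. CPT2, its partner at the inner membrane, showed -0.11 (SE 0.152, limma adjusted p = 0.83). Its medians were 9.95 in TN and 10.08 in HS, and the ranges overlapped almost fully.

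In mitochondrial β-oxidation, the 8 ACADM probes ranged from -0.21 to -0.08. The representative ACADM probe had a lowest, median and highest log2 signal of 12.56, 13.51 and 14.09 in TN and of 12.87, 13.19 and 13.71 in HS, a difference of -0.17 (SE 0.101, limma adjusted p = 0.521). HADHA A_72_P223852 had 10.36, 10.94 and 11.62 in TN and 10.41, 10.69 and 10.98 in HS, a difference of -0.19 (SE 0.0774, limma adjusted p = 0.236). The HS values of both lay inside the TN range. HADHB, the other subunit of the trifunctional protein, ranged from -0.06 to 0.05 over its 6 probes, with 2 of 6 above 0, and those were the only member probes above 0.

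In the peroxisome, EHHADH O9867 showed -0.15 (SE 0.0827, limma adjusted p = 0.459). The receptor PPARA had a lowest, median and highest log2 signal of 7.68, 8.76 and 9.55 in TN and of 7.77, 8.39 and 9.10 in HS at its representative probe. The difference was -0.33 (SE 0.14, limma adjusted p = 0.266), and 15 of 18 HS animals lay below the TN mean of their breed. All 4 PPARA probes lay between -0.33 and -0.18, each with an unadjusted p under 0.05, and 0 of 4 passed. The smallest adjusted p among them was 0.186. Over all 36 member probes, 14 had an unadjusted p under 0.05, against 5859 of all 44796 kept probes.

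**Figure D3:**
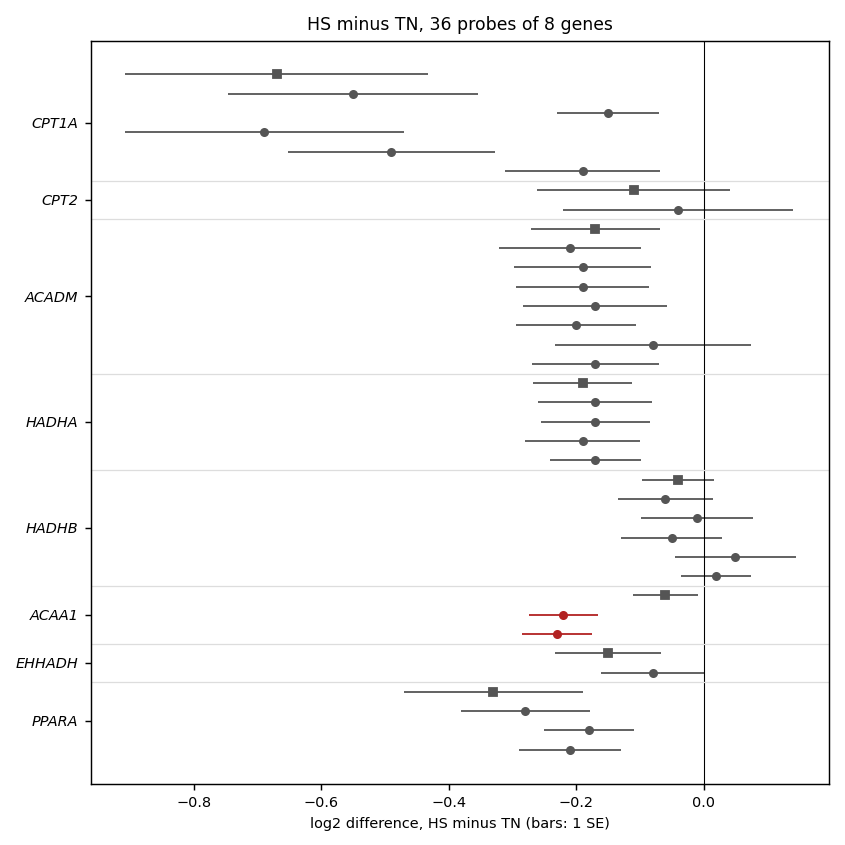
Log2 difference between HS and TN (horizontal axis, below 0 is lower in HS) for each of 36 probes, grouped by gene, with bars of 1 SE. Squares are representative probes, and red marks an adjusted p under 0.05. The 2 red points are the identical ACAA1 probes at -0.22 and -0.23, the CPT1A probes reach -0.69, and 2 HADHB probes lie above 0.

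Other genes of the pathway were read through their representative probes. Of 109 genes listed under 7 roles, 95 were measured, and 0 of 95 passed the test between HS and TN, with 13 of 95 at an unadjusted p under 0.05 in limma. Over all 11090 representative probes 0.965% passed, and 1527 of them had an unadjusted p under 0.05 in limma. The median log2 difference was -0.04 over the 95 genes and -0.00356 over all representative probes. By role, the medians were -0.07 for uptake and activation (9 genes), 0.02 for carnitine supply (8), -0.03 for mitochondrial β-oxidation (21), -0.00 for peroxisomal oxidation (16), -0.04 for ketone metabolism (7), -0.02 for regulators (19) and -0.10 for other known PPARA targets (15).

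The genes nearest to the threshold had roles next to the members. CPT1B, the muscle-type isoform of the outer transferase, showed -0.15 (limma adjusted p = 0.0682). ANGPTL4, a fasting-induced lipoprotein lipase inhibitor, had a lowest, median and highest log2 signal of 12.27, 13.48 and 14.10 in TN and of 11.75, 13.00 and 13.64 in HS, a difference of -0.58 (limma adjusted p = 0.0865). ACADVL, which opens β-oxidation of very long chains, showed -0.19 (limma adjusted p = 0.0894). APOA4, an apolipoprotein, showed -1.90 (limma adjusted p = 0.0954), with TN animals between 11.21 and 17.96 and HS animals between 11.15 and 16.52. The carnitine-acylcarnitine carrier SLC25A20 showed -0.25 (limma adjusted p = 0.125) and the electron carrier subunit ETFB -0.17 (limma adjusted p = 0.126). ACSL4 (0.47, limma adjusted p = 0.31), BBOX1 (0.17, limma adjusted p = 0.163) and HNF4A (0.24, limma adjusted p = 0.172) lay above 0. These genes were picked for their values, so their directions do not describe the lists. No marker of the macrophage list passed between HS and TN in limma (0 of 8, median -0.09).

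Within single breeds no member probe passed the test. All 6 CPT1A probes and 3 of 5 HADHA probes had their lowest HS minus TN value in F1, while the overlapping HADHA pair had its lowest value in LW. In LW 0 of 36 probes passed (3 with an unadjusted p under 0.05 in limma) beside 0% of all kept probes. In CR 0 of 36 passed (5 unadjusted in limma) beside 0%. In F1 0 of 36 passed (11 unadjusted in limma) beside 0.00893%. Of all 44796 kept probes, 2294 in LW, 3314 in CR and 4169 in F1 had an unadjusted p under 0.05 in limma. The interaction of breed and temperature called 0 of 36 member probes (6 unadjusted in limma) and 0% of all kept probes, where 1676 had an unadjusted p under 0.05. Differences between breeds in the response are therefore not shown.

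CPT1A A_72_P403023 had a lowest, median and highest log2 signal of 10.76, 11.90 and 12.35 in LW TN and 11.03, 11.78 and 12.52 in LW HS. It had 11.34, 11.99 and 12.03 in CR TN and 10.36, 11.29 and 11.88 in CR HS. In F1 it had 10.42, 12.50 and 13.72 in TN and 9.70, 11.22 and 11.65 in HS. In F1, 5 of 6 TN animals thus lay above every HS animal, and replicate 5 was the exception among TN at 10.42. Within LW the difference was 0.02 (SE 0.384, limma adjusted p = 0.998), within CR -0.58 (limma adjusted p = 0.791) and within F1 -1.46 (limma adjusted p = 0.261), with an interaction F of 3.73 (unadjusted p = 0.0342, limma adjusted p = 0.995). When F1 TN replicate 5 was left out, 4 CPT1A probes passed within F1, at -1.84 to -1.20 (limma adjusted p = 0.0166 to 0.0394), together with HADHA A_72_P713613 at -0.60 (limma adjusted p = 0.0384). That animal decided the call, and it was singled out after its values were seen.

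HADHA A_72_P223852 had a lowest, median and highest log2 signal of 10.36, 10.64 and 11.02 in LW TN and 10.54, 10.83 and 10.95 in LW HS. In F1 it had 10.88, 11.13 and 11.62 in TN and 10.53, 10.64 and 10.93 in HS, so that 4 of 6 F1 TN animals lay above every LW animal. LW animals differed between HS and TN by 0.15, CR animals by -0.26 and F1 animals by -0.47 (SE 0.115, limma adjusted p = 0.963, 0.603 and 0.194), with an interaction F of 7.58 (unadjusted p = 0.0019, limma adjusted p = 0.995). The 2 probes that varied with it, O9964 and A_72_P713613, had F of 6.86 and 6.25. The overlapping pair did not share this order, since A_72_P092111 showed -0.28 in LW and -0.10 in F1, with an F of 0.381. The pattern therefore belonged to 3 of 5 HADHA probes. PPARA A_72_P775972 showed -0.07 in LW, -0.40 in CR and -0.54 in F1 (limma adjusted p = 0.996, 0.76 and 0.481).

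**Figure D4:**
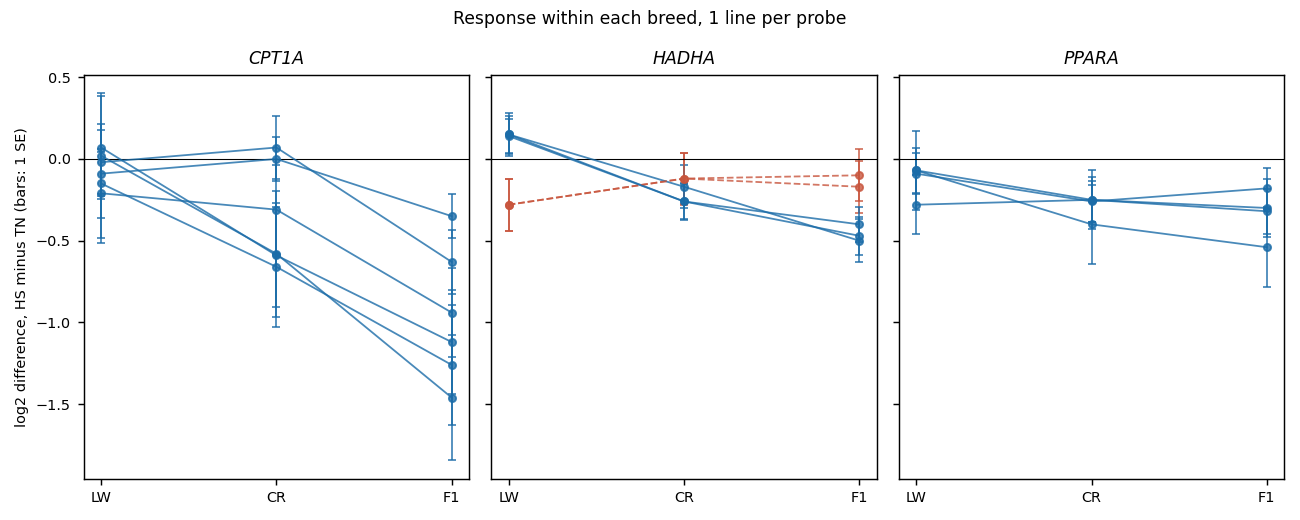
Log2 difference between HS and TN within each breed (vertical axis, bars of 1 SE), with 1 line per probe of CPT1A, HADHA and PPARA. The CPT1A lines reach -1.46 in F1, and the overlapping HADHA pair (dashed, red) starts at -0.28 in LW while the other 3 HADHA probes start above 0. The differences between breeds did not pass the interaction test.

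CR livers had more EHHADH, ACADM and ACAA1 signal than LW livers, and F1 livers had more EHHADH signal than LW livers. CPT2 signal was lower in F1 than in LW at both probes, and 1 of 2 passed the test. Between CR and LW, 12 of 36 member probes passed the test, which were 11 distinct sequences of 3 genes, and all 12 were higher in CR. Of all kept probes 26.5% passed in this comparison and 13.6% as higher in CR, and the share of member probes called was 33.3%. Between F1 and LW, 4 of 36 probes of 3 genes passed, which is 11.1% and below the 18.4% of all kept probes. Of these 4, 3 were higher and 1 was lower in F1, and 9.12% of all kept probes passed as higher in F1. The CR and F1 comparisons share the LW animals.

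EHHADH is a peroxisomal bifunctional enzyme. Its probe O9867 had a lowest, median and highest log2 signal of 10.17, 10.54 and 11.14 in 12 LW animals, 10.70, 11.26 and 11.55 in 12 CR animals and 10.58, 11.24 and 11.54 in 12 F1 animals. All 12 CR and all 12 F1 animals lay above the LW median, and 8 CR and 7 F1 animals lay above the highest LW animal. EHHADH was 1.58-fold higher in CR (log2 difference 0.66, SE 0.101, limma adjusted p = 1.47e-05) and 1.51-fold higher in F1 (0.60, limma adjusted p = 2.87e-04). The other probe, A_72_P213592, gave 0.65 and 0.60 (limma adjusted p = 1.68e-05 and 2.45e-04), and 10 CR and 10 F1 animals lay above the highest LW value of 10.94. The CR difference of O9867 was above 0 on 5 of 5 slides (0.32 to 0.97), as was the F1 difference (0.10 to 0.79). Within LW the HS animals (10.17 to 10.58) lay lower than most TN animals (10.46 to 11.14), a difference of -0.34 that did not pass (limma adjusted p = 0.952).

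ACADM, which opens medium-chain β-oxidation, was higher in CR in 7 of 8 probes. Its representative probe had a lowest, median and highest log2 signal of 12.56, 13.10 and 13.51 in LW, 13.21, 13.62 and 14.03 in CR and 12.74, 13.17 and 14.09 in F1. All 12 CR animals lay above the LW median and 9 lay above the highest LW animal. The difference between CR and LW was 0.50 (SE 0.124, limma adjusted p = 0.0028), and the 8 probes ranged from 0.44 to 0.61. The probe that did not pass, A_72_P653622, showed 0.44 with a wider SE of 0.188 (limma adjusted p = 0.0786). On single slides the representative difference ran from 0.18 to 0.77. F1 lay nearer to LW, with 0.19 (limma adjusted p = 0.321) at the representative probe and 1 of 8 probes past the test, A_72_P627490 at 0.33 (SE 0.115, limma adjusted p = 0.0427). This last call was lost in 13 of 36 fits that each left out 1 array.

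ACAA1, a peroxisomal thiolase, was higher in CR in all 3 probes by a smaller amount. O14450 had a lowest, median and highest log2 signal of 15.84, 16.13 and 16.36 in LW, 16.13, 16.42 and 16.52 in CR and 15.96, 16.21 and 16.46 in F1. The difference between CR and LW was 0.24 (limma adjusted p = 0.00419), and the identical pair showed 0.22 and 0.23 (limma adjusted p = 0.0145 and 0.00935). Each was above 0 on 4 of 5 slides. In the log2 values as the authors deposited them, the 3 differences were 0.15, 0.14 and 0.17 and none passed (limma adjusted p = 0.144, 0.129 and 0.0679). Between F1 and LW the ACAA1 probes ranged from 0.05 to 0.14 and 0 of 3 passed.

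CPT2, the inner carnitine palmitoyltransferase, lay in the opposite direction. A_72_P124341 had a lowest, median and highest log2 signal of 7.70, 8.43 and 9.91 in LW, 7.56, 7.94 and 8.40 in CR and 6.45, 7.51 and 9.02 in F1. All 12 CR animals lay below the LW median, and 7 of 12 F1 animals lay below the lowest LW animal. The F1 level fell by 0.91 on the log2 scale relative to LW (SE 0.222, limma adjusted p = 0.0051), and the difference was below 0 on 5 of 5 slides (-1.66 to -0.03). With slide 3 left out it was -0.77 and did not pass (limma adjusted p = 0.0592). The CR difference of -0.57 did not pass (limma adjusted p = 0.0555). The representative probe A_72_P026376 showed -0.49 in F1 (SE 0.186, limma adjusted p = 0.0595) and -0.31 in CR (limma adjusted p = 0.233), the same sign without passing.

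The remaining members did not pass in either comparison. CPT1A ranged from -0.26 to 0.17 between CR and LW and from -0.14 to 0.23 between F1 and LW. HADHA ranged from -0.02 to 0.28 and from 0.17 to 0.27, and HADHB from -0.23 to 0.13 and from -0.18 to 0.08. PPARA ranged from -0.11 to 0.20 and from 0.02 to 0.18. No PPARA probe passed between CR and LW (0 of 4 in limma, 0 with an unadjusted p under 0.05). Any part of PPARA in the EHHADH, ACADM and ACAA1 differences was not tested.

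**Figure D5:**
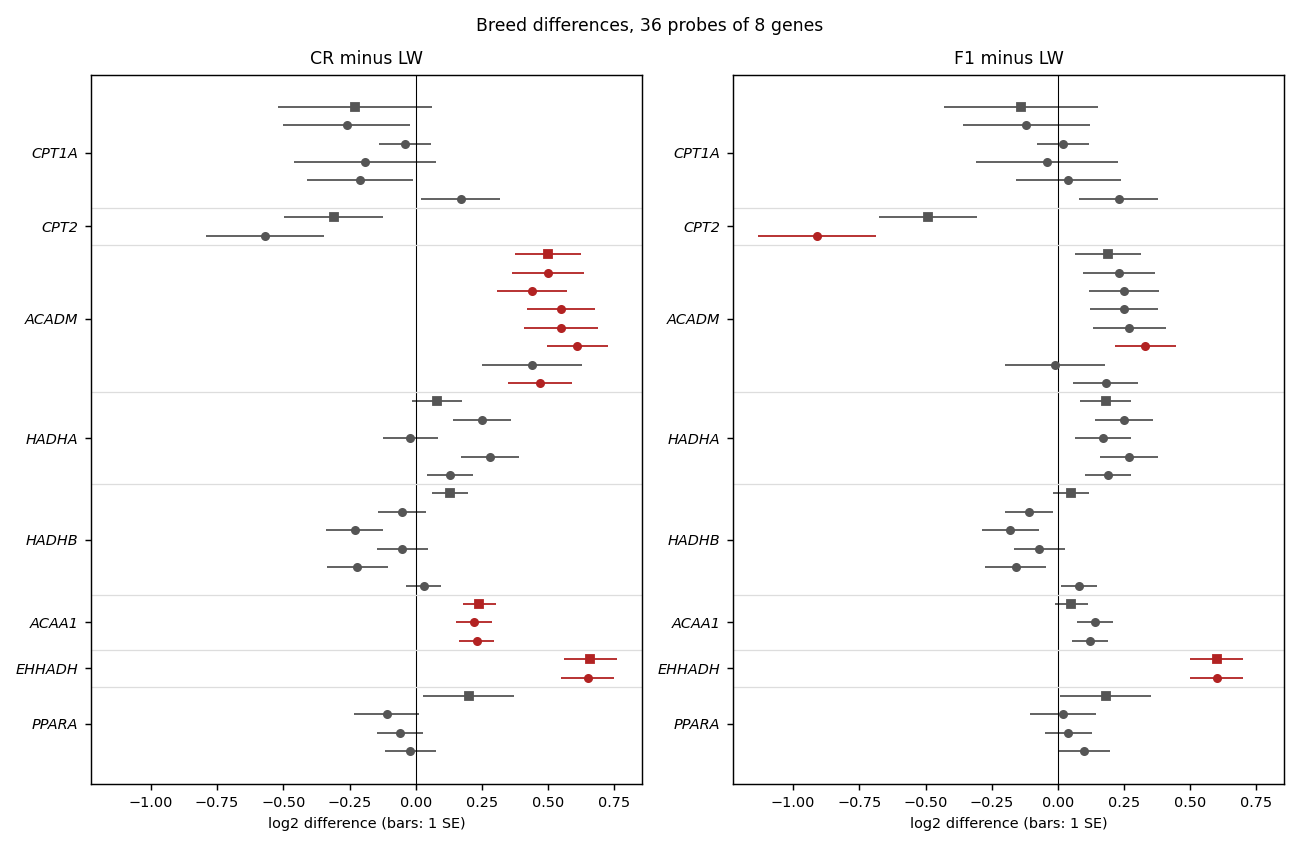
Log2 differences of CR minus LW (left) and F1 minus LW (right) for each of 36 probes, grouped by gene, with bars of 1 SE. Squares are representative probes, and red marks an adjusted p under 0.05. EHHADH (0.65 and 0.66), 7 ACADM probes and 3 ACAA1 probes are red at left, and EHHADH (0.60), 1 ACADM probe (0.33) and 1 CPT2 probe (-0.91) at right.

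Without the 5 arrays that lay away from their breed, the counts were 18 of 36 between CR and LW and 11 of 36 between F1 and LW, while the background rose to 33.0% and 32.3%. EHHADH then showed 0.81 and 0.78 between F1 and LW (limma adjusted p = 5.68e-08 and 2.46e-07), and CPT2 showed -1.28 and -0.65 (limma adjusted p = 3.10e-05 and 0.0143). Between CR and LW all 8 ACADM probes passed (0.47 to 0.65), and ACAA1 showed 0.23 to 0.26. The overlapping HADHA pair was higher in CR (0.30 and 0.37) and in F1 (0.37 and 0.42), while the other 3 HADHA probes did not pass. HADHB was lower in CR in 2 probes (-0.33 and -0.31) and in F1 in 4 probes (-0.42 to -0.29).

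Cell type markers moved with breed. Of 8 measured macrophage markers, 6 were lower in CR than in LW and 6 were lower in F1, with a median log2 difference of -0.84 and -0.62. The mean level of the list lay between 11.40 and 12.03 in LW, 10.84 and 11.29 in CR, and 10.78 and 11.67 in F1. CD163, a scavenger receptor of resident macrophages, was -1.15 in CR. All 3 measured neutrophil markers, 4 of 5 endothelial markers and 4 of 9 lymphocyte markers were also lower in CR, and 3, 3 and 3 in F1. The neutrophil list lay between 6.39 and 8.36 in LW, 5.93 and 7.11 in CR, and 5.76 and 7.17 in F1. Of 7 stellate cell and fibroblast markers, 0 passed in CR in limma and 2 were lower in F1. Of 5 cholangiocyte markers, 1 passed in CR, the keratin KRT7 at 0.74, and the list median was 0.10. Of 3 adipocyte markers, LEP was higher (0.21) and PLIN1 lower (-0.39) in CR, and ADIPOQ showed 0.04 (limma adjusted p = 0.645). Of 7 hepatocyte markers in CR, HNF4A was higher (0.36) and APOA1 lower (-0.12). Over 36 animals, deviations from the group mean of EHHADH and of the macrophage level had r of -0.52, whereas those of ACADM, ACAA1 and CPT2 had r of -0.06, 0.10 and 0.26. The part of cell type content in the breed differences was not tested.

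Among the other genes of the pathway, 22 of 95 passed between CR and LW, 16 higher and 6 lower in CR, beside 26.0% of all 11090 representative probes. The median was 0.02 against -0.01 over all representative probes. In peroxisomal oxidation 4 of 16 were higher and 1 lower. DECR2, a reductase for unsaturated chains, at 0.53 (limma adjusted p = 2.81e-04), ACOT8 at 0.22 and HSD17B4 at 0.16 were among those higher, and the import receptor PEX7 at -0.40 (limma adjusted p = 3.79e-04) was lower. DECR2 lay between 13.56 and 14.48 in LW and between 14.16 and 14.67 in CR. In mitochondrial β-oxidation 3 of 21 were higher, with the enoyl-CoA isomerase ECI2 at 0.64 (limma adjusted p = 0.00325), ACAD10 at 0.23 and ACADS at 0.17.

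In carnitine supply 3 of 8 were higher, CPT1C at 0.38 (limma adjusted p = 0.00921), ALDH9A1 at 0.30 (limma adjusted p = 0.00171) and CPT1B at 0.18. In uptake and activation 1 of 9 was higher, the acyl-CoA synthetase ACSL4 at 0.88 (limma adjusted p = 0.0109). Of 19 regulators, 5 were higher and 3 lower, among them the PPARA partner RXRA at 0.27 (limma adjusted p = 0.00277), the coactivator NCOA2 at 0.36 (limma adjusted p = 0.00357) and the mitochondrial deacetylase SIRT3 at -0.39 (limma adjusted p = 1.64e-05). In ketone metabolism the transporter SLC16A7 was lower at -0.16 (limma adjusted p = 0.0137), and 1 of 7 passed. Of 15 other known PPARA targets, the lipid droplet protein PLIN2 was lower at -0.84 (limma adjusted p = 1.10e-04). PLIN2 is also made by macrophages, whose markers were lower in CR, and their part was not tested.

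Between F1 and LW, 6 of 95 passed, 4 higher and 2 lower, beside 17.4% of all representative probes. DECR2 at 0.51 (limma adjusted p = 0.00138), RXRA at 0.24 (limma adjusted p = 0.0136) and NCOA2 at 0.30 (limma adjusted p = 0.0186) were among those higher. PLIN2 at -0.62 (limma adjusted p = 0.00476) and PRKAA1, a catalytic subunit of the energy sensor AMPK, at -0.27 (limma adjusted p = 0.00281) were lower.

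The cross was set against CR and against the mean of its parent breeds. Between F1 and CR 0 of 36 member probes passed (6 with an unadjusted p under 0.05 in limma), beside 1.5% of all kept probes. Of all 44796 kept probes, 5594 had an unadjusted p under 0.05 in limma there. EHHADH O9867 showed -0.07 (SE 0.101, limma adjusted p = 0.877), and the 8 ACADM probes lay between -0.45 and -0.20 with a smallest adjusted p of 0.232. Among the other pathway genes 2 of 95 passed, ECI2 at -0.72 (limma adjusted p = 0.0136) and SIRT3 at 0.23 (limma adjusted p = 0.0352). Against the mid-parent value 0 of 36 passed (4 unadjusted in limma), beside 1.12%, and 6807 of all 44796 kept probes passed unadjusted. EHHADH lay above the mid-parent by 0.26 and 0.28 (limma adjusted p = 0.133 and 0.106), and CPT2 A_72_P124341 showed -0.63 (SE 0.192, limma adjusted p = 0.0968). Without the 5 arrays, EHHADH at 0.44 and 0.43, CPT2 at -0.95 and 3 HADHB probes passed, beside 17.0% of all kept probes.

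Across animals the members varied with low mutual correlation, which is given as a description over arrays that share normalization. Between the representative probes of different members, deviations from the group means over 36 arrays had r between -0.47 (HADHB and EHHADH) and 0.47 (CPT1A and HADHA). The subunits of the trifunctional protein, HADHA and HADHB, had r of 0.29, and PPARA had r of 0.33 with CPT1A and 0.17 with EHHADH. Among 11066 other symbols, the gene most like each member over the 36 arrays was YTHDF1 for CPT1A (r = 0.79), TBK1 for CPT2 (0.71), MSRA for ACADM (0.83), INO80C for HADHA (0.70), CCDC132 for HADHB (0.78), KIF3B for ACAA1 (0.69), SEZ6L for PPARA (0.81) and CAB39 for EHHADH (0.88).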

How the data were processed

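Liver RNA of 36 pigs was hybridized to 1-colour pig arrays. The authors deposited scanner tables from Agilent Feature Extraction 10.10.1.1 with a linear intensity for each spot, and a log2 table of 42051 probes that they had quantile normalized. Here quantile normalization was applied to the log2 of the median spot intensity, and a probe was kept if flagged as well above background on 6 or more of 36 arrays (44796 of 60305 probes). Symbols and coordinates came from the RefSeq gene table of Sscrofa11.1. Groups came from the sample labels, and replicate numbers only name animals.

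The tests used limma 3.58.1 under R 4.3.3 (two-sided moderated tests, adjusted by Benjamini-Hochberg over all kept probes, threshold 0.05). An additive model of breed and temperature gave the HS and breed contrasts, and a means model of the 6 groups gave the within-breed contrasts and the interaction F test. The study's random effects of pen, slaughter day and parents are not in the labels used here and were not fitted. No interval for counting error applies to arrays, so the number of arrays limits the precision. Arrays lay on 5 slides, each scanned once.

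All 8 members are named, with all their probes. A symbol is represented by the kept probe whose mean signal was highest, and for each pathway list the genes with the largest differences are named, together with other genes past the threshold. The members and lists were chosen with earlier results of these data known. Alternatives were the processed signal, normexp background correction (offset 50), the deposited log2 table, looser and stricter filters on dim probes, slide as a block, array weights, a trended robust spread, a model without breed, 1 value per gene, and leaving out arrays or slides. The code was tested on simulated data. Promoter and protein sequences were not analysed here, and a few items are not reported here.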

Additional observations from a re-analysis of the deposited data

Results flagged for a closer look

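Among 48 groups of 6 animals, the groups of the representative probes, 2 held a sample that stood far from the others. Chance gives about 1 in 20 groups, so 2 of 48 is no more than chance gives. CPT2 A_72_P026376 had a log2 signal of 10.93 in LW HS replicate 2, against 10.03 to 10.26 in the other 5. HADHB A_72_P208672 had 12.84 in LW HS replicate 3, against 12.59 to 12.67 in the other 5. For HADHA A_72_P713613, the HS minus TN difference in F1 minus that in LW was -0.65, since all 6 F1 HS animals lay below the F1 TN mean and all 6 LW HS animals lay above the LW TN mean. The interaction F test did not pass for this probe (limma adjusted p = 0.995).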

How the results depend on the processing

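EHHADH stayed past the threshold and higher in CR and in F1 than in LW under every alternative run. Between HS and TN the count of 2 member probes became 1 with no filter on dim probes, and 0 without the 5 arrays that lay away from their breed, without a breed term, and without each of slides 1, 2, 3, 4 and 5, with 0 to 3 when single arrays were left out (3 without F1 TN replicate 5, CPT1A A_72_P443903 at -0.78 added). It was 0 without LW TN 2 or 5, LW HS 2, 4 or 6, CR TN 2, 5 or 6, CR HS 3, F1 TN 1, 2, 4 or 6, or F1 HS 2 or 6, and 1 without LW TN 6, CR TN 3, CR HS 1, 2 or 6, or F1 HS 1. The differences of the ACAA1 pair stayed between -0.27 and -0.17. Within F1 the count of 0 became 1 without slide 5 (CPT1A at -1.95), and 0 to 5 without single arrays, with 5 without F1 TN replicate 5. The CR minus LW count of 12 became 6 without slide 3 (12 to 15 without single arrays). The F1 minus LW count of 4 became 8 with array weights, 11 without the 5 arrays and 2 without slide 3 (3 to 5 without single arrays). The mid-parent count of 0 became 3 with array weights, 6 without the 5 arrays and 1 without slide 1 (0 to 3 without single arrays, 3 for F1 HS replicate 2, 1 for F1 HS replicate 1 or for F1 TN replicate 3). The interaction, LW, CR and F1 minus CR counts stayed at 0. The causes were not tested.

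CPT1A A_72_P403023 within LW (0.02) reversed to -0.01 with the processed signal, -8.90e-04 in the authors' table, -0.04 with array weights, -0.06 with 1 value per gene, -0.04 without the 5 arrays, and -0.07, -0.10 and -0.01 without slides 2, 4 and 5, and ran from -0.18 to 0.17 without single arrays. HADHA A_72_P223852 within LW (0.15) reversed to -0.02 with 1 value per gene, and EHHADH O9867 between F1 and CR (-0.07) to 0.06 without the 5 arrays. Of 64 differences of representative probes, 45 kept their sign under all alternatives other than 1 value per gene, which replaces the probe and was not counted, and the other 19 were at most 0.19 in size. No paired analysis was possible, because each pig was sampled at a single temperature and the labels do not identify litters. Signal over background limits CPT1A A_72_P409728 and HADHB O5529, which were near background on many arrays.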
